A study of Caenorhabditis elegans with 123 samples.

Results

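The transcripts described here are those of 6 protein genes of the mitochondrial genome of Caenorhabditis elegans, ND1, ND4, CYTB, COX1, COX2 and COX3. They were chosen as the probe sets that the array's annotation maps to exactly 1 of these symbols, and each gene has 1 such probe set, which gives 6 of the 22548 probe sets measured. RefSeq lists 12 protein genes in the mitochondrial genome, and 8 of them have a probe set of 1 symbol. ATP6 and ND5 are the other two. The 6 were chosen by earlier readings of the same arrays, in which their N2 values differed between N2 arrays named by letters and N2 arrays named by numbers, so that difference is given below as a description with no test.

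Staged embryos were profiled on Affymetrix arrays at 10 times, 0, 23, 41, 53, 66, 83, 101, 122, 143 and 186 min, counted from the 4-cell stage, with embryos kept at 22 °C. The 4 genotypes were wild type (strain N2, 34 arrays), mex-3(zu155); skn-1(RNAi) (28 arrays), pie-1(zu154) (27 arrays) and pie-1(zu154); pal-1(RNAi) (34 arrays), which makes 40 groups of 2 to 4 arrays. The doubles are called mex-3/skn-1 for short, or pie-1/pal-1. In the doubles 1 gene was depleted by RNA interference, which lowers a transcript without removing the gene, and pie-1/pal-1 carries the same pie-1 allele as its single mutant. MEX-3 and PIE-1 are maternal proteins of the early embryo, the first an RNA-binding protein that restricts translation and the second a repressor of transcription in the germ lineage. SKN-1 and PAL-1 are transcription factors that set the fates of posterior blastomeres. Every array holds RNA of whole embryos, so a lower value can come from fewer mitochondria or from less RNA in each, and these cannot be told apart.

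Mitochondria of the embryo come from the oocyte, and their small circular genome encodes a few core subunits of the respiratory chain, while the other subunits are encoded in the nucleus and imported. ND1 and ND4 are membrane subunits of complex I, the NADH dehydrogenase. CYTB is the cytochrome b of complex III. COX1, COX2 and COX3 form the catalytic core of complex IV, cytochrome c oxidase, COX1 and COX2 carrying the redox centres. The respiratory chain pumps protons that the ATP synthase, complex V, uses to make ATP.

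All values are the authors' deposited log2 values, on which a difference of 1 is a 2-fold difference. Array medians lay between 3.24 and 3.41, and the 6 transcripts lay between 4.72 and 11.53 on every array, so the annotated symbols correspond to transcripts well above the middle of each array. The number of arrays limits the precision, and since the labels do not say whether arrays of a group hold separate collections of embryos, the p-values cover only how far arrays of a group spread. That spread is 1 estimate for each probe set, pooled over all 40 groups. SEs and p-values of mex-3/skn-1 therefore do not reflect its own wider spread, given further on. The ND1 probe set carries the suffix that Affymetrix gives to sets with probes matching other sequences, so its values may hold signal of those.

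The genotype labels were checked on the targeted genes. Over 0 to 41 min, mex-3 lay between 7.42 and 8.82 in N2 and between 2.64 and 3.25 in mex-3/skn-1 (first of its 2 probe sets), and pie-1 lay between 6.86 and 8.20 in N2 and between 3.15 and 3.76 over the arrays of the single and the double pie-1 mutant. Of the 3 skn-1 probe sets, 1 lay between 2.51 and 2.93 in mex-3/skn-1 and between 3.21 and 4.83 in N2. The others overlapped, at 3.30 to 3.93 in mex-3/skn-1 against 3.67 to 4.74 in N2, and at 2.67 to 3.26 against 2.78 to 3.42. The brightest pal-1 probe set was above every pie-1 array of the same time on 11 of 34 pie-1/pal-1 arrays, and it read 12.49 on 1 pie-1 array at 53 min, so these arrays are named by their labels only and results were repeated without those 12. Groups also differed in technical measures: the difference between the 3' and 5' control probe sets of GAPDH, a measure of RNA integrity and labelling length, averaged 0.92 early and 0.72 late in N2, against 1.25 to 1.64 in the mutants, and the 75th percentile of an array averaged 4.46 and 4.42 in N2 against 4.07 to 4.20. Scan days are known for 96 arrays, and each of the 9 days holds 1 genotype only, so scan day and genotype cannot be told apart. Of adult and sperm genes (vitellogenins and major sperm proteins), 26 of 35 listed were measured, and their mean ran from 3.18 to 3.86 on all arrays but 1 mex-3/skn-1 array at 0 min, where it was 4.35. None of the 26 was called in any comparison between windows or with N2.

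Times were summarised in an early window (0, 23 and 41 min) and a late window (101, 122, 143 and 186 min), each the unweighted mean of its groups, with 8 to 11 and 12 to 13 arrays in a genotype. A transcript was called, and said to rise, fall or be higher or lower, where limma's moderated test gave an adjusted p under 0.05 (Benjamini-Hochberg over all 22548 probe sets) and the difference was at least 2-fold, which is 1 on the log2 scale. Differences are given ± SE.

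In N2 the complex I transcript ND4 rose between the windows, and the other 5 mitochondrial transcripts did not pass the threshold. On the 10 early N2 arrays ND4 had a lowest, median and highest value of 6.87, 8.39 and 9.59, and on the 12 late arrays 8.59, 9.27 and 10.27. The ranges overlapped, and the late median lay within the early range. The late minus early difference of ND4 was 1.13 ± 0.26 (adjusted p = 0.000192, limma), and 14.9% of all probe sets were called in that comparison either way and 6.70% of all as higher. Single arrays show where the rise lies: at 23 min ND4 read 7.42, 7.09, 8.51 and 6.87, and at 143 min 9.91, 10.20 and 10.27. All 3 arrays at 143 min were above all 10 arrays of the early window. Leaving out the N2 array named P, at 0 min, lowered the difference to 0.95, under the 2-fold threshold. Over the times with lettered N2 arrays alone it was 0.996 (adjusted p = 0.0234, limma), just under 2-fold and so no longer called. Over the numbered times it was 1.66 (0.000382). Of the early N2 arrays 9 of 10 were scanned on the first scan day and of the late ones 10 of 12 on the second. With scan day as a fixed block the difference was 1.90, and within the third day, which holds 1 early and 2 late arrays, it was 0.09.

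ND1, the other complex I transcript, read 7.18, 8.15 and 8.92 (lowest, median, highest) in early N2 and 7.45, 8.33 and 8.86 in late N2, a difference of 0.12 ± 0.25. CYTB read 6.53, 7.48 and 8.08 early and 6.98, 7.82 and 8.57 late, a difference of 0.33 ± 0.26. The windows of both transcripts overlapped over most of their range. Of the complex IV transcripts, COX1 read 9.21, 10.17 and 10.71 early and 8.77, 9.88 and 10.89 late, with a difference of -0.36 ± 0.20 (95% interval -0.77 to 0.04). COX2 differed by 0.21 ± 0.31 and COX3 by 0.06 ± 0.25. These 5 differences had adjusted p-values from 0.189 to 0.919.

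Over the 10 times taken singly, an F test within N2 passed for COX1 (adjusted p = 0.00116, limma) and ND4 (7.92e-05), and 39.2% of all probe sets passed it. COX1 group means ran from 9.06 at 122 min to 10.51 at 143 min, which are neighbouring times, and ND4 means from 7.47 at 23 min to 10.13 at 143 min. All 6 transcripts had their highest N2 mean at 143 min. In the plot of levels by time, the N2 points step up and down between neighbouring times.

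**Figure D1:**
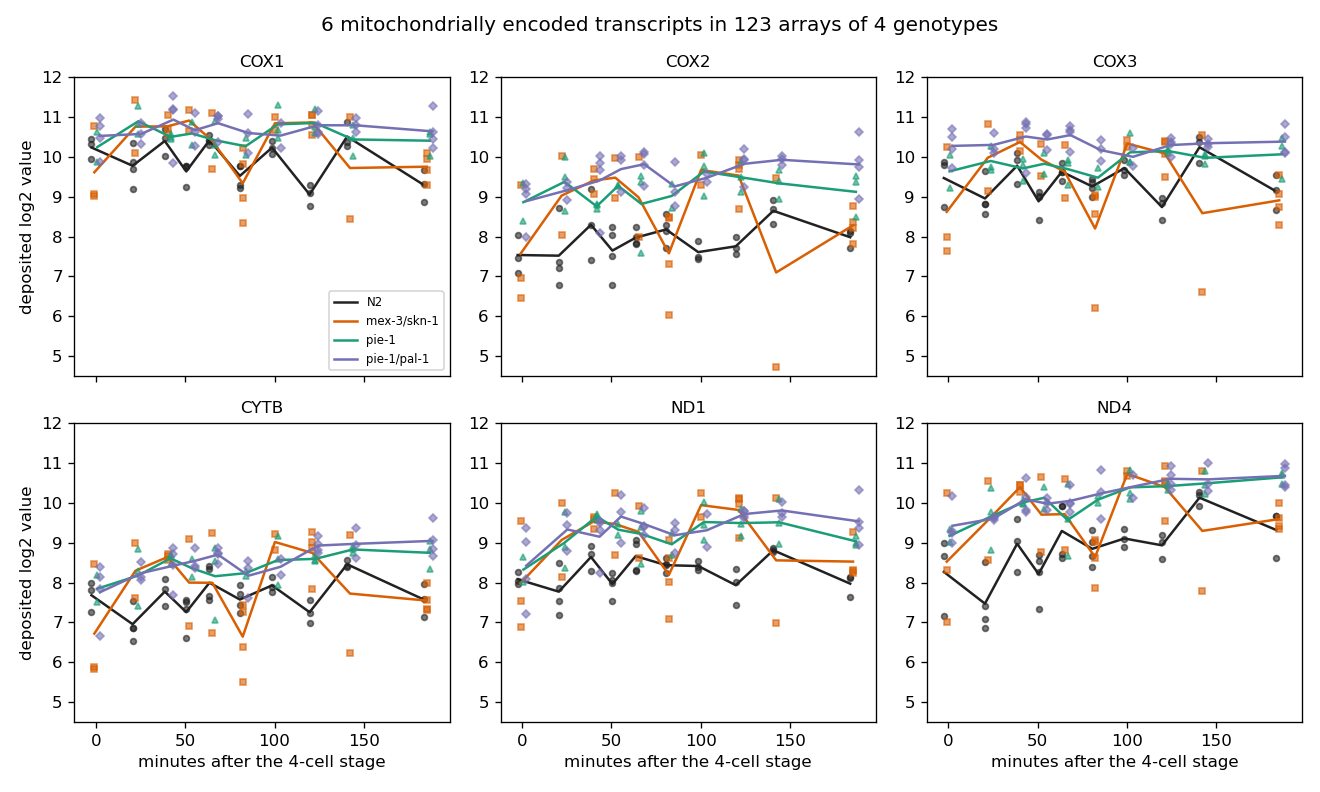
Level (log2) of each of the 6 mitochondrial transcripts against minutes after the 4-cell stage, with 1 panel per transcript, 1 point per array and a line through the group means of each of the 4 genotypes. N2 means peak at 143 min and lie below those of pie-1/pal-1 at all 10 times in all 6 panels, and the means of pie-1 and pie-1/pal-1 span 0.41 to 1.47.

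In pie-1 and pie-1/pal-1 group means spanned 0.65 to 1.47 and 0.41 to 1.39 over the 10 times, against 1.04 to 2.66 in N2, and the span was narrower than in N2 for 5 of the 6 transcripts and wider for ND1. None of the 6 passed the F test in either genotype (adjusted p from 0.301 to 0.964 and from 0.219 to 0.999, limma, none under 0.05 unadjusted), where 34.4% and 36.2% of all probe sets passed. Between the windows none was called, against 13.7% and 12.9% of all probe sets. ND4 nevertheless had positive differences that fell short of 2-fold, 0.87 ± 0.28 (adjusted p = 0.0105) in the single mutant and 0.86 ± 0.26 (0.00475) in the double. In pie-1/pal-1 CYTB differed by 0.70 ± 0.25 (0.023) and ND1 by 0.63 ± 0.25 (0.0415), also under 2-fold, while COX1 differed by 0.01 ± 0.20 and COX3 by -0.11 ± 0.24. The ND4 difference in pie-1/pal-1 was 0.89 within the fifth scan day (6 early and 8 late arrays) and 0.86 within the seventh (5 and 5). At an unadjusted p under 0.05, 1 transcript passed in the single mutant and 4 in the double, and limma with a trended, robust prior called none in either.

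In mex-3/skn-1 all 6 passed the F test over times (adjusted p from 1.46e-05 for COX3 to 0.000678 for ND1), as did 46.5% of all probe sets, and none was called between the windows (9.92% of all probe sets, none of the 6 at an unadjusted p under 0.05, none with the trended, robust prior). Group means spanned 1.57 to 2.57. The F test takes 1 spread for each probe set from all 4 genotypes. Residual SDs within groups ran from 0.75 to 1.21 in mex-3/skn-1, 0.36 to 0.58 in pie-1 and 0.35 to 0.55 in pie-1/pal-1. Whether the 6 pass on each genotype's own spread was not tested, so the F tests are not set against each other. The late minus early differences ran from -0.18 ± 0.28 for COX3 to 0.51 ± 0.29 for ND4. These levels moved with the scan day, as described further on, and with scan day as a fixed block ND4 was called at 1.00. Within single days the ND4 difference was 0.65 on the sixth (5 early and 4 late arrays), 0.51 on the eighth (1 and 1) and 1.32 on the ninth (2 and 6).

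For the difference between a mutant's late minus early change and that of N2, tested as an interaction, none of the 6 was called (none at an unadjusted p under 0.05, none with the trended, robust prior, against 3.70%, 0.887% and 1.17% of all probe sets for mex-3/skn-1, for pie-1 and for pie-1/pal-1). For ND4 the interaction was -0.62 in mex-3/skn-1 (95% interval -1.40 to 0.16), -0.26 in pie-1 (-1.03 to 0.51) and -0.27 in pie-1/pal-1 (-1.01 to 0.46).

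Between genotypes, the window means of the mitochondrial transcripts were lowest in N2 over all arrays. They were highest in the pie-1 backgrounds, but without the ninth scan day's arrays and without 186 min mex-3/skn-1 was above pie-1 in all 6, by 0.22 to 0.46 early and 0.17 to 0.54 late, and none of these differences was called. All 3 mutants were compared with the same N2 arrays, so their differences are given side by side and are not independent of each other. In pie-1/pal-1 late embryos COX2, CYTB, ND1 and ND4 were higher than in N2, in pie-1 late embryos COX2, ND1 and ND4, and in the early window COX2 and ND4 in both. In mex-3/skn-1 only ND4, early, passed. None of the 6 was called lower than N2 in any window.

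The largest of these differences was that of COX2 in late pie-1/pal-1 embryos. COX2 had a lowest, median and highest value of 7.45, 7.94 and 8.93 in late N2, 8.94, 9.91 and 10.62 in late pie-1/pal-1 and 8.49, 9.44 and 10.11 in late pie-1. All 13 pie-1/pal-1 arrays were above all 12 N2 arrays, the closest pair reading 8.94 and 8.93, and 11 of 12 pie-1 arrays were. How many of all probe sets separate in this way, here and below, was not counted. The differences from N2 were 1.76 ± 0.29 (adjusted p = 1.6e-06, limma) in pie-1/pal-1, where 0.271% of all probe sets were called higher and 4 of the 6 transcripts were, and 1.40 ± 0.29 (8.64e-05) in pie-1, where 0.0710% and 3 of the 6 were. COX2 was the only one of the 6 called in both genotypes under all 14 alternatives other than leaving out a replicate, with differences from 1.02 to 1.77 in pie-1 and from 1.29 to 2.02 in pie-1/pal-1.

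ND1 separated from N2 as fully. It read 7.45, 8.33 and 8.86 in late N2, 8.93, 9.31 and 10.09 in late pie-1 and 8.90, 9.67 and 10.32 in late pie-1/pal-1. All 12 pie-1 and all 13 pie-1/pal-1 arrays were above all 12 N2 arrays. The share of all probe sets that separate as fully was not taken. By limma's call, a different measure, 0.0710% and 0.271% of all probe sets were higher in these comparisons. The ND1 differences were 1.11 ± 0.24 (adjusted p = 0.000126, limma) and 1.31 ± 0.24 (9.87e-06). ND4 read 8.59, 9.27 and 10.27 in late N2, 10.10, 10.46 and 10.82 in late pie-1 and 10.12, 10.47 and 11.01 in late pie-1/pal-1. Here 9 of 12 and 12 of 13 arrays were above all N2 arrays. Its differences were 1.11 ± 0.25 (0.000225) and 1.20 ± 0.25 (0.000103). With scan day as a random block ND1, at 0.94, and ND4, at 0.89, lost their calls in late pie-1.

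CYTB was called in pie-1/pal-1 only, at 1.03 ± 0.24 (adjusted p = 0.000563), against 0.88 ± 0.24 (0.00246) in pie-1, and the difference between these genotypes was itself 0.15 (95% interval -0.33 to 0.64) and not called. It read 6.98, 7.82 and 8.57 in late N2 and 8.20, 8.85 and 9.61 in late pie-1/pal-1, where 12 of 13 arrays were above all N2 arrays. COX1 had late differences of 0.92 ± 0.19 (0.00011) in pie-1/pal-1 and 0.85 ± 0.19 (0.000227) in the single mutant, and COX3 of 0.80 ± 0.24 (0.00643) and 0.62 ± 0.24 (0.0299). These 4 were under 2-fold, and the ranges of their arrays overlapped with N2. With scan day as a random block the late pie-1/pal-1 difference of CYTB was 0.98 and was not called.

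In the early window ND4 read 6.87, 8.39 and 9.59 in N2 (10 arrays), 7.02, 10.27 and 10.55 in mex-3/skn-1 (8), 8.81, 9.87 and 10.38 in pie-1 (8) and 8.99, 9.64 and 10.63 in pie-1/pal-1 (11). The ranges overlapped in every case. The differences from N2 were 1.25 ± 0.30 (adjusted p = 0.000344) in mex-3/skn-1, 1.37 ± 0.30 (0.000207) in the pie-1 single mutant and 1.47 ± 0.27 (7.35e-06) in its double. The mex-3/skn-1 call of ND4 was lost without that genotype's replicate 1, at 0.63, with the GAPDH covariate, at 0.80, and over the times with lettered N2 arrays, at 0.84. COX2 read 6.78, 7.45 and 9.18 in early N2, 8.39, 8.80 and 9.99 in pie-1 and 8.00, 9.21 and 10.03 in pie-1/pal-1. Its differences were 1.21 ± 0.35 (0.0062) and 1.37 ± 0.32 (0.000332), the first of which, at 1.14, was not called with scan day as a random block. Of all probe sets 0.368%, 0.191% and 0.137% were called higher in these 3 comparisons, against 1, 2 and 2 of the 6. The other early differences of pie-1 and pie-1/pal-1 ran from 0.35 to 0.96.

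In mex-3/skn-1 the differences over all arrays were mostly smaller, and they were larger without the ninth scan day's arrays, as given further on. Besides ND4, its early differences were 0.24 ± 0.23 for COX1, 0.26 ± 0.28 for COX3, 0.42 ± 0.29 for CYTB, 0.70 ± 0.28 for ND1 and 0.88 ± 0.35 for COX2. Late, none of the 6 passed, as against 0.151% of all probe sets called higher, and ND1 came closest at 0.93 ± 0.25 (adjusted p = 0.00157). At an unadjusted p under 0.05, 4 of the 6 passed late, and limma with a trended, robust prior called none.

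**Figure D2:**
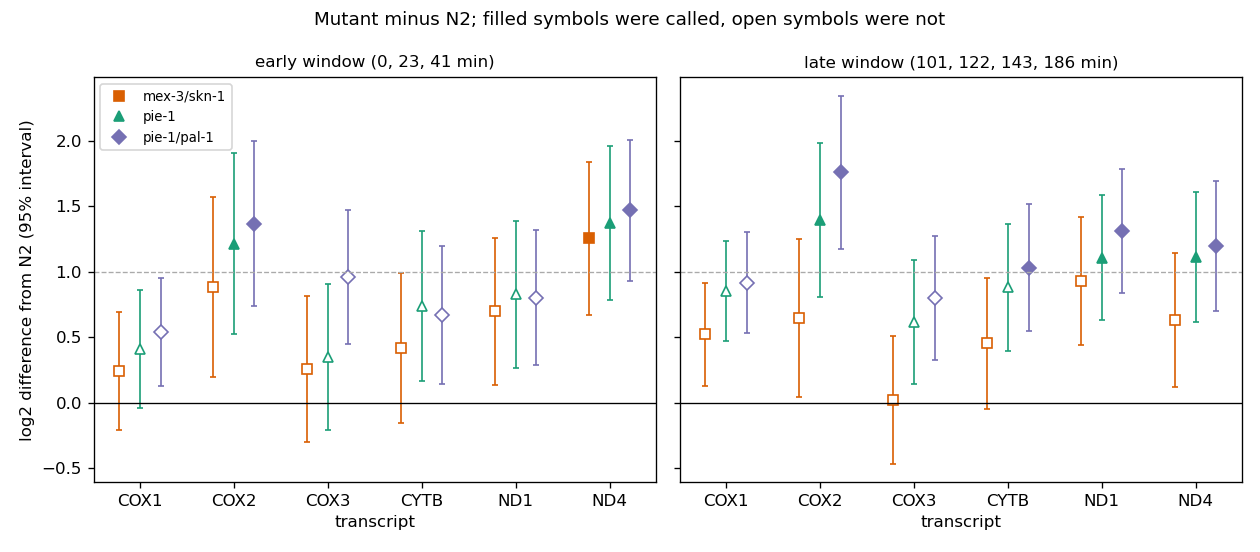
Difference of each mutant from N2 (log2, mutant minus N2) for the 6 transcripts in the early and late windows, with bars for 95% intervals, filled points for calls and a dashed line at the 2-fold threshold. Every point lies above 0, from 0.02 for COX3 in late mex-3/skn-1 to 1.76 for COX2 in late pie-1/pal-1.

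The window means gave the same order for all 6 transcripts in the late window, N2 lowest, then mex-3/skn-1, then pie-1 and highest pie-1/pal-1. That order rests on the ninth-day arrays of mex-3/skn-1 and on 186 min: without them late mex-3/skn-1 minus pie-1 was 0.24 for COX1, 0.17 for COX2, 0.31 for COX3, 0.43 for CYTB, 0.54 for ND1 and 0.30 for ND4, none called. Against the pie-1 double 5 of 6 late differences were then above 0. The early order over all arrays was the same for COX1, COX2, COX3 and ND4, while early CYTB and ND1 were highest in pie-1. Most neighbours in this order did not differ beyond their spread. Between pie-1 and pie-1/pal-1 none of the 6 was called in either window, where 0.0443% and 0.0399% of all probe sets were. The largest difference between these was 0.61 for COX3 early (95% interval 0.07 to 1.16), 1 transcript passed early and none late at an unadjusted p under 0.05, and the trended, robust prior called none. Between mex-3/skn-1 and pie-1 none was called either (1.91% and 2.25% of all probe sets, 0 early and 2 late at an unadjusted p under 0.05, none with the trended, robust prior), and the late differences ran from -0.18 for ND1 to -0.75 for COX2 (95% interval -1.35 to -0.14). COX2 in late mex-3/skn-1 was lower than in pie-1/pal-1 by -1.11 ± 0.30 (adjusted p = 0.00385), and 2.31% of all probe sets were called lower. That call was lost, at -0.09, without the mex-3/skn-1 arrays of the ninth scan day and without 186 min. Early, none of the 6 was called between these doubles (1.38% of all probe sets, 1 at an unadjusted p under 0.05, none with the trended, robust prior).

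Time by time, the pie-1/pal-1 group mean was above N2 at 10 of 10 times for all 6 transcripts. The pie-1 mean was above N2 at 10 of 10 times for COX2, CYTB, ND1 and ND4 and at 8 of 10 for COX1 and COX3, and the mex-3/skn-1 mean at 5 to 8 of 10. For COX1 the difference was largest at 122 min in all 3 mutants, 1.74 to 1.81, where N2 COX1 read 8.77, 9.30 and 9.11. At 143 min, where N2 COX1 read 10.27, 10.38 and 10.89, it was smallest in all 3, from -0.79 in mex-3/skn-1 to 0.28 in pie-1/pal-1.

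The calls against N2 depended on which N2 times were used and on the scaling of the arrays. Over the times with lettered N2 arrays alone, COX2 was the only one of the 6 called in late pie-1 and in late pie-1/pal-1, and the early calls in mex-3/skn-1 and pie-1 were lost. Over the numbered times 3, 2, 6 and 4 were called in early mex-3/skn-1, late mex-3/skn-1, late pie-1 and early pie-1/pal-1. The share of all probe sets called was not taken for the lettered times, the numbered times or the GAPDH covariate. With the GAPDH difference as a covariate ND1 fell to 0.73 and ND4 to 0.79 in late pie-1 and 1 call was left there and in late pie-1/pal-1. In the deposited values 2.40% to 11.6% of all calls against N2 were higher, whereas quantile normalization gave 24.8% to 44.0%, and centring on the 3792 probe sets that average 5 or more gave 30.4% to 53.7% and moved the median of all probe sets by 0.21 to 0.54. The differences of all 6 transcripts from N2 were positive under each of these scalings, in all 3 mutants and both windows, and their median after that centring was 0.99 to 1.37. They were not all positive under other alternatives: in mex-3/skn-1 the GAPDH covariate gave -0.20 for COX1, -0.26 for COX3 and -0.0034 for CYTB early and -0.51 for COX3 late. Lettered N2 times gave -0.13, -0.13 and -0.05 for COX1, COX3 and CYTB early and -0.09 and -0.52 for COX1 and COX3 late, and none of these was called.

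Within mex-3/skn-1 the transcripts were low on the arrays scanned on the ninth day. That day holds 14 of its 28 arrays, replicates 5 to 8, and all arrays at 83 and 186 min. COX2 had a lowest, median and highest value of 4.72, 8.09 and 8.98 on those 14 arrays and of 8.03, 9.70 and 10.04 on the other 14. ND4 read 7.02, 8.92 and 9.99 against 8.58, 10.55 and 10.94, and COX1 8.35, 9.68 and 10.65 against 10.09, 11.01 and 11.43. The medians of all 6 were lower on the ninth day, and the ranges overlapped for each of these 3.

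At the 3 times that hold arrays of both the ninth and the sixth day (0, 122 and 143 min), the ninth-day value was lower at every time for every one of the 6. The mean difference was -1.56 for COX1, -2.80 for COX2, -2.41 for COX3, -2.23 for CYTB, -2.13 for ND1 and -2.26 for ND4. At 143 min the COX2 value was 9.48 on the sixth day and 4.72 on the ninth. Against the eighth day (53 and 66 min) the differences ran from -0.96 to -2.35, lower at both times. Spread within groups followed, with residual SDs of 0.75 to 1.21 in mex-3/skn-1 against 0.31 to 0.60 in N2, 0.36 to 0.58 in pie-1 and 0.35 to 0.55 in pie-1/pal-1.

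The GAPDH 3' minus 5' difference moved too, with a lowest, median and highest value of 0.77, 1.26 and 1.72 on the ninth day and 1.02, 1.71 and 2.28 on the others, and its part in the result was not tested. Without the ninth-day arrays and without 186 min, 5 transcripts were called higher than N2 in late mex-3/skn-1, and 3 in the early window. The 5 were COX1 by 1.01, COX2 by 1.65, CYTB by 1.21, ND1 by 1.66 and ND4 by 1.34. Those arrays were set apart after their low values were seen, so larger differences without them follow from that choice. The share of all probe sets called in that fit was not taken. In pie-1/pal-1 the days were closer: over 9 shared times the seventh day differed from the fifth by -0.18 for ND4 to 0.58 for COX2.

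**Figure D3:**
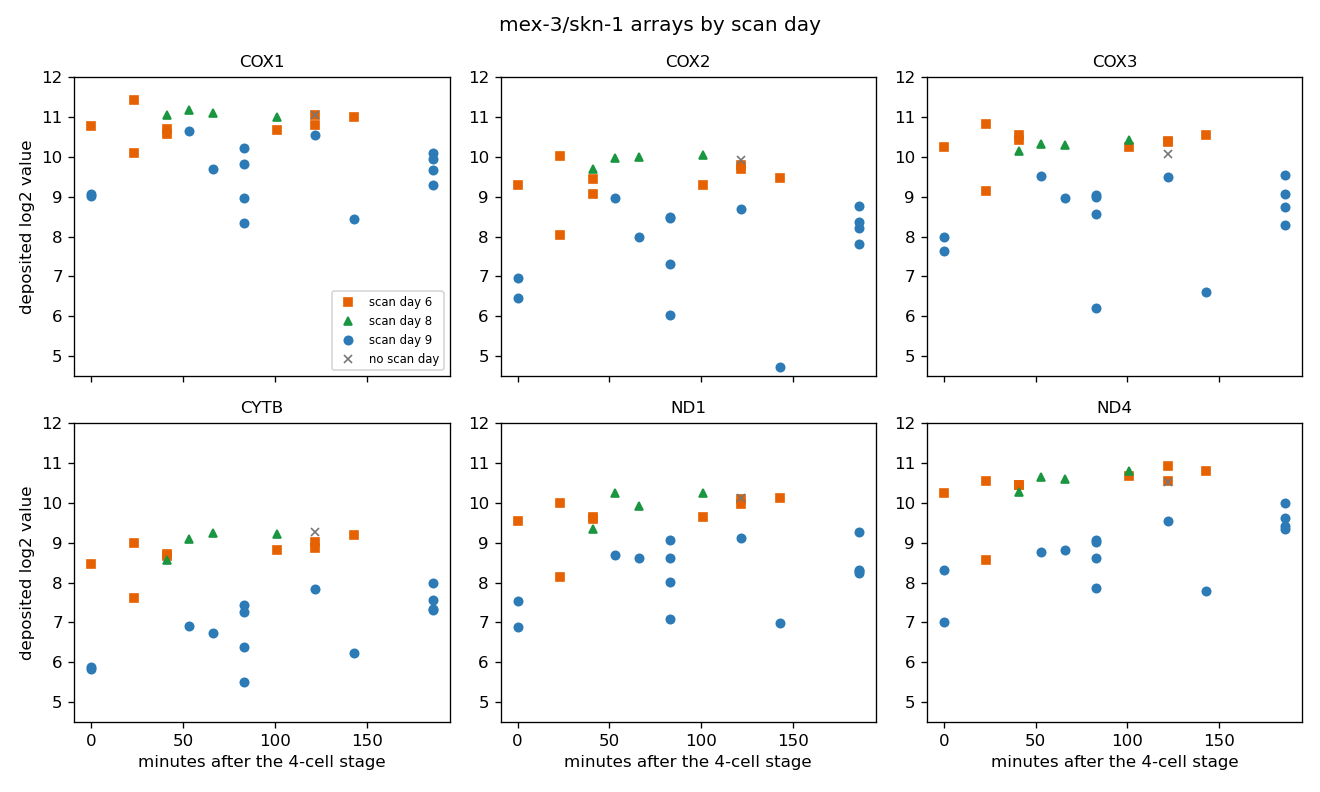
Levels (log2) of the 6 transcripts on the 28 mex-3/skn-1 arrays against minutes after the 4-cell stage, 1 point per array, marked by scan day 6, 8 or 9 or none. Ninth-day points lie below the others at the shared times, as for COX2 at 143 min with 4.72 against 9.48.

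The N2 arrays carry 2 kinds of replicate name. Letters were used at 0, 41, 101 and 143 min and for 2 of 4 arrays at 66 min (14 arrays), and numbers at 23, 53, 83, 122 and 186 min and for the other two at 66 min (20 arrays). The labels do not say what the names stand for, and apart from 66 min naming and time cannot be told apart. COX1 shows the pattern best. Its lettered arrays read 10.44, 10.32 and 9.95 at 0 min, 10.71, 10.02 and 10.47 at 41 min, 10.40, 10.08 and 10.22 at 101 min and 10.27, 10.38 and 10.89 at 143 min.

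The numbered COX1 arrays read 9.69, 9.86, 10.35 and 9.21 at 23 min, 9.24, 9.78, 9.74 and 9.78 at 53 min and 9.23, 9.30, 9.78 and 9.78 at 83 min. They read 8.77, 9.30 and 9.11 at 122 min and 8.87, 9.33 and 9.68 at 186 min. Outside 66 min the lowest lettered array, at 9.95, was above every numbered array but 1, which read 10.35. At 66 min itself the 2 numbered arrays, at 10.55 and 10.41, and the 2 lettered ones, at 10.29 and 10.43, lay together.

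Over all N2 arrays COX3 had a lowest, median and highest value of 8.74, 9.83 and 10.49 on lettered and 8.42, 9.0 and 9.85 on numbered arrays. CYTB read 7.26, 7.86 and 8.57 against 6.53, 7.48 and 8.41, ND1 7.96, 8.35 and 8.92 against 7.18, 8.13 and 9.07, and ND4 7.15, 9.02 and 10.27 against 6.87, 8.64 and 9.92. The ranges overlapped in each. COX2, with 7.10, 7.88 and 9.18 against 6.78, 7.99 and 8.73, had the lower median on lettered arrays.

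**Figure D4:**
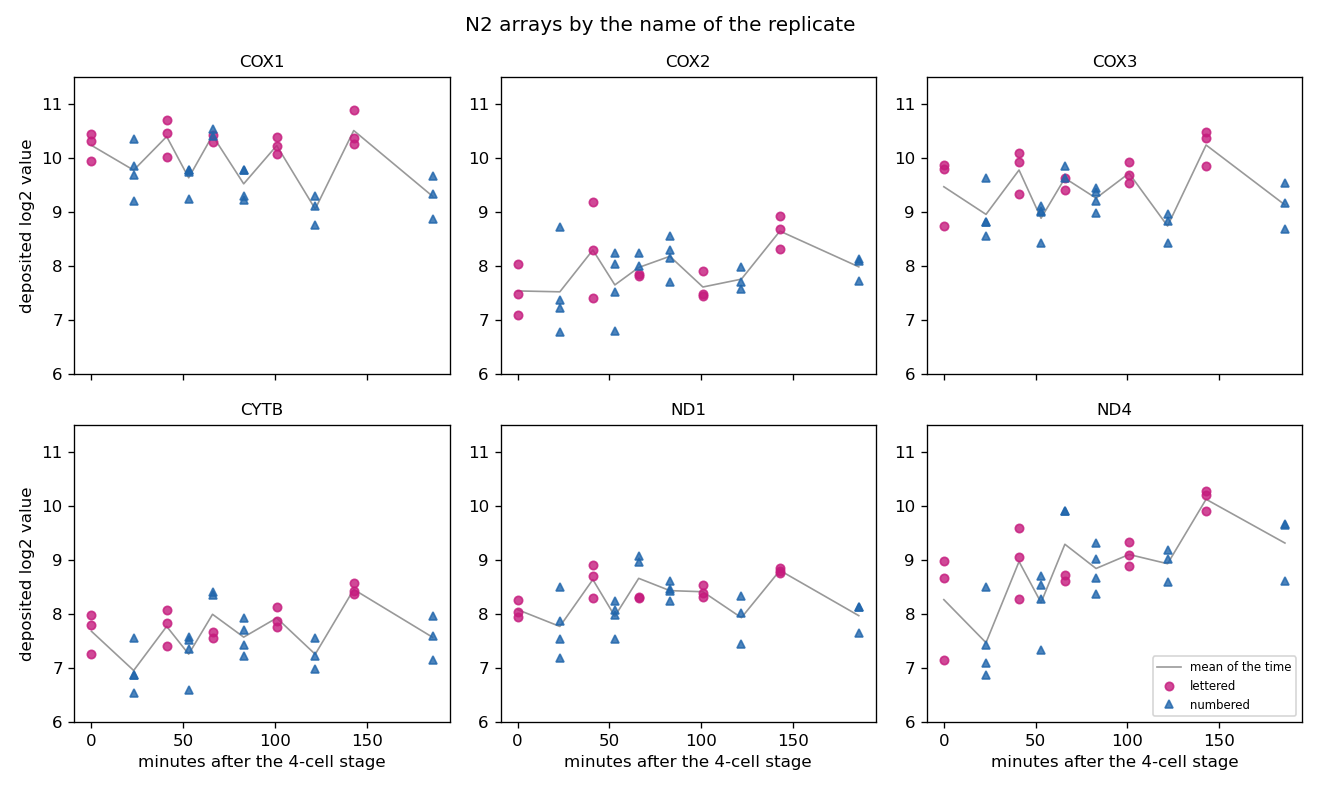
Levels (log2) of the 6 transcripts on the 34 N2 arrays against minutes after the 4-cell stage, 1 point per array, with lettered and numbered replicate names in different symbols. COX1 lettered arrays lie between 9.95 and 10.89 and numbered ones between 8.77 and 10.55.

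To set neighbouring times against each other, the group mean at each of 5 times (23, 41, 101, 122 and 143 min), both of whose neighbours carry the other kind of name, was compared with the straight line between those neighbours, with the sign turned so that positive means higher at lettered times. The mean deviation was 0.98 for COX1, 0.97 for COX3, 0.84 for ND4, 0.79 for CYTB, 0.63 for ND1 and 0.39 for COX2. Of the 30 deviations 29 were positive, up to 1.38, and the exception was COX2 at 101 min with -0.37. Deviations at neighbouring times share group means and the transcripts moved together, so the 30 are not independent. A mean deviation of at least 0.5 was reached by 5 of the 6 transcripts and by 2.51% of all probe sets, a figure that only describes how the transcripts came to be chosen.

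In the mutants, whose arrays are all numbered, the same measure was taken at the same times. The means of the 6 ran from -0.46 to 0.16 in mex-3/skn-1, from -0.19 to 0.21 in pie-1 and from -0.20 to 0.06 in pie-1/pal-1. Positive deviations numbered 12, 16 and 14 of 30. Single deviations ran from -2.02 to 1.41 in mex-3/skn-1, from -0.57 to 0.46 in the pie-1 single mutant and from -0.50 to 0.30 in the double. No transcript reached 0.5, which 0.204%, 0.129% and 0.0266% of all probe sets did.

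Within N2 scan days the deviation was present. It was taken inside the first day (23 and 41 min) and the second (122 and 143 min), and all 24 values were positive. COX1 had 0.53, 0.60, 1.47 and 1.46 and ND4 1.17, 0.84, 0.81 and 1.15. The transcripts were chosen for this shift and neighbouring times share group means, so the count of positive values is no separate support. Within days the measure was not taken for all probe sets. The GAPDH 3' minus 5' difference deviated in the same direction by 0.25 on average (0.06 to 0.62, positive at 5 of 5 times), and its part in the result was not tested. The 75th percentile of the arrays deviated by 0.04, positive at 3 of 5 times.

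At 66 min, the 1 time with both kinds of name, the order was the opposite. ND4 read 9.91 and 9.92 on the numbered arrays and 8.62 and 8.73 on the lettered ones. Lettered minus numbered was -0.12 for COX1, -0.29 for COX2, -0.22 for COX3, -0.76 for CYTB, -0.72 for ND1 and -1.24 for ND4, and 3 of the 6 were at -0.5 or under, as were 6.52% of all probe sets. The GAPDH difference was 1.19 and 1.25 on the numbered and 0.50 and 0.66 on the lettered arrays. There the lettered arrays were scanned on the second day and the numbered ones on the first, so name and scan day cannot be told apart.

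**Figure D5:**
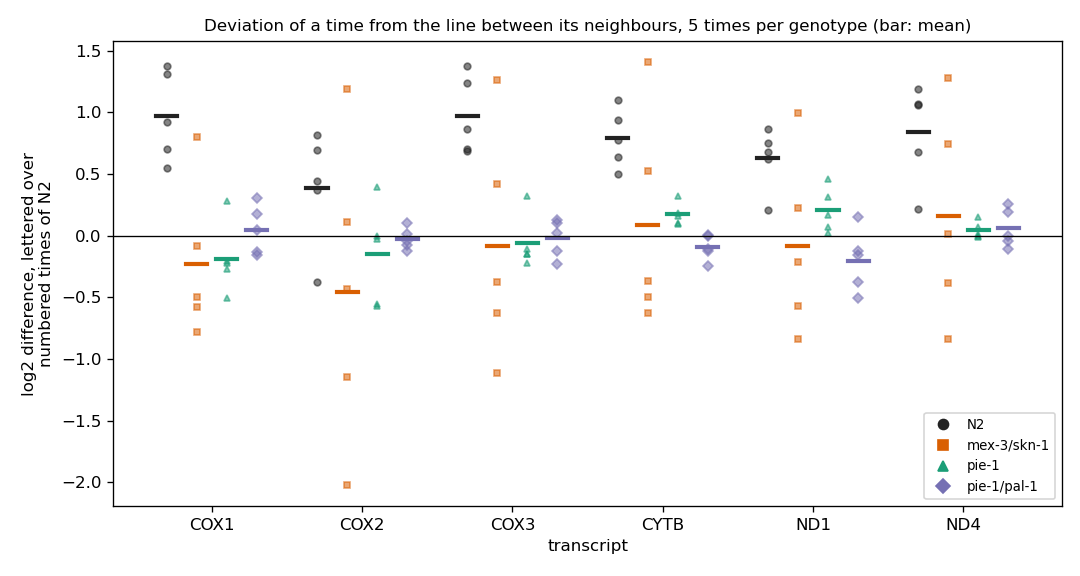
Deviation (log2) of each transcript's group mean from the line between the neighbouring times, signed as higher at lettered N2 times, with 1 point for each of the 5 times and a bar for their mean, by genotype. In N2 the means run from 0.39 for COX2 to 0.98 for COX1, and in the mutants all lie between -0.46 and 0.21.

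Array by array the 6 transcripts moved together over the pooled arrays. After each group mean was subtracted, Pearson's r over all arrays was between 0.77 (COX1 with ND4) and 0.90 (COX1 with COX2) for the 15 pairs, with a median of 0.85. These points share array, scaling and RNA, and the values describe these arrays only. In 20 of the 40 groups a single array was lowest for all 6. The residual of their mean correlated with that of the GAPDH difference at 0.35 over all arrays. By genotype the value was 0.44 in N2, 0.54 in mex-3/skn-1, -0.07 in the pie-1 single mutant and 0.35 in the double. With the residual of the array's 75th percentile the correlation was 0.01 over all arrays, which pools genotypes of opposite sign. It was 0.15 for N2, 0.17 for mex-3/skn-1, 0.05 for the single mutant and -0.40 for the double. Among the 6 transcripts of the double it ran from -0.62 for COX2 to 0.09 for ND4. The part of the 75th percentile in the results was not tested.

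The probe sets whose 40 group means were most like the mean of the 6, by Pearson's r, were ATP6 with 0.89, R04E5.8 with 0.85, kle-2, a condensin subunit, with 0.84, swsn-1, a subunit of the SWI/SNF chromatin remodelling complex, with 0.83, and sdha-1, the flavoprotein of complex II, with 0.83. They were sought among 7672 probe sets of 1 symbol whose group means had an SD of at least 0.3. ND5 had a smaller SD and so was not among them. The probe set of sdha-1 that was most like them was higher in late pie-1/pal-1 than in N2 by 1.11 ± 0.17 (adjusted p = 1.14e-07), but the other probe set of sdha-1 differed by 0.13 ± 0.08 (0.216). The first was picked for group means like those of the 6, which lie above N2 there. Its difference therefore follows in part from that choice and is no separate support.

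Among nuclear genes of the respiratory chain more were called lower than higher over time, while the 6 had no common direction in N2. Of 49 nuclear genes for subunits and assembly factors, late N2 embryos had 1 higher and 12 lower than early ones, with a median of -0.47, against 0.02 over all probe sets, of which 8.24% were called lower. Of the 3792 probe sets averaging 5 or more, a nearer background for these genes, 23.6% were lower, with a median of -0.13. The share of the 49 called lower, 24.5%, is near that background. For higher calls the share of the 49, 2.04%, was under that background's 19.9%. Lower were 3 of 11 genes of complex I, 3 of 5 of complex II, 2 of 15 of complex IV and 4 of 10 of the ATP synthase. The largest fall by adjusted p was that of asb-1, an ATP synthase subunit, at -2.37 ± 0.17 (7.43e-22). The complex II gene mev-1 fell by -1.48 ± 0.14 and nduf-5 of complex I by -1.69 ± 0.17, while ucr-2.1 of complex III rose by 1.36 ± 0.26. Medians between windows were -0.32 in mex-3/skn-1 (1 higher, 4 lower), -0.81 in pie-1 (0 and 19) and -0.58 in pie-1/pal-1 (1 and 12), where 5.81%, 8.28% and 6.13% of all probe sets were called lower. Of the probe sets averaging 5 or more 21.8%, 29.1% and 22.7% were lower, with medians of -0.19, -0.30 and -0.09. Of the 49, 8.16%, 38.8% and 24.5% were lower. Called higher were 2.04%, 0% and 2.04% of the 49, against 17%, 18.5% and 21.8% of those probe sets. These shares were not tested against each other.

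Against N2 the 49 nuclear genes had negative medians, as did the probe sets averaging 5 or more. In late pie-1/pal-1, where 4 mitochondrial transcripts were higher, 1 nuclear gene was higher and 7 were lower, with a median of -0.31, and 2.06% of all probe sets were lower. Complex II gave both directions there. Its sdhb-1 was lower by -1.51 ± 0.22 (adjusted p = 4.79e-08, limma) on the brighter of its 2 probe sets. The 1 higher gene was sdha-1, and only on the brighter of its 2 probe sets, as given above. The ATP synthase genes atp-1 and atp-2 were lower by -1.26 ± 0.23 (7.41e-06) and -1.21 ± 0.18 (1.9e-07). Over early and late mex-3/skn-1, early and late pie-1 and early pie-1/pal-1, 0, 0, 2, 0 and 1 of the 49 were higher and 10, 8, 1, 5 and 5 lower, with medians of -0.58, -0.30, -0.10, -0.28 and -0.37. Of all probe sets 6.82%, 6.12%, 2.37%, 2.89% and 3.78% were called lower there. Of the 3792 averaging 5 or more 22.1%, 20.9%, 5.67%, 9.97% and 10.1% were, with medians of -0.52, -0.50, -0.20, -0.34 and -0.30, and 8.41% were in late pie-1/pal-1 (-0.24). Beside these, 20.4%, 16.3%, 2.04%, 10.2%, 10.2% and 14.3% of the 49 were lower. Called higher, in the same order, were 0%, 0%, 4.08%, 0%, 2.04% and 2.04% of the 49. Of the 3792, 1.4%, 0.448%, 0.949%, 0.316%, 0.607% and 0.765% were higher. Nothing is read from these differences.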

How the data were processed

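Expression was measured on 123 Affymetrix arrays. The authors' deposited values, 1 per array and probe set, run from 1.79 to 12.72 and are taken as log2 from that range, since no source states the scale. Probe summarisation and normalization are not given in the sources used here. Of 22625 probe sets 77 controls were left out. The platform's probe table names 1 gene for 20766 of the rest, more than 1 for 887 and no gene for 895. Array description files exist for 97 arrays and gave scan days for 96, a rehybridisation note for 5 N2 arrays and another time than the label for 2 arrays, whose labelled times were kept. No 2 arrays held identical values, and the highest correlation of 2 arrays was 0.9939.

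All arrays entered 1 linear model with 40 group means (limma 3.58.1, R 4.3.3, functions lmFit, contrasts.fit and eBayes, with 83 residual and 4.80 prior degrees of freedom). The rest was computed with Python 3.11.15, pandas 2.3.3, numpy 2.4.6 and matplotlib 3.10.9. The fit was run on simulated data with 22548 probe sets and 200 changed in each of 3 comparisons. These were late minus early N2, and late mex-3/skn-1 and late pie-1/pal-1 against N2. The fit recovered 100% with 0 false calls, under independent noise only. Recovery of differences just over the 2-fold threshold was not tested. The 6 transcripts are all named, with up to 4 genes of each list that have the smallest adjusted p in a comparison described, the 5 probe sets most like them, and the 4 targeted genes, which were added after their values were seen. The brightest probe set stands for a gene. The transcripts, gene lists, windows and tests were chosen with earlier results of these data known. Alternatives were other scalings, a filter at a mean of 4, replicate and scan-day blocks, lettered or numbered N2 times, the GAPDH covariate, another prior and leaving out arrays.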

Additional observations from a re-analysis of the deposited data

Results flagged for a closer look

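In groups of 4 arrays, an array was singled out where its gap to the nearest of the others took up more than the critical share of the group's range in Dixon's test at 95%. Of 72 sets of values 6 were singled out, and chance singles out about 1 in 20. COX1 read 9.24 in N2 at 53 min replicate 1, against 9.74 to 9.78 on the other arrays. COX1 read 10.37 in pie-1/pal-1 at 66 min replicate 1, against 10.96 for the nearest array. ND1 read 9.12 in mex-3/skn-1 at 122 min replicate 5, against 9.97 for the nearest, and 9.27 at 186 min replicate 7, there above the others, of which the nearest read 8.31. In pie-1/pal-1 at 41 min replicate 1 was low for both COX3 (9.60 against 10.73 for the nearest) and ND1 (8.25 against 9.31).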

How the results depend on the processing

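All 6 transcripts lay above the array medians, so precision is limited by how many arrays a group holds. No difference called in the deposited values or under an alternative had the opposite sign in the other. For single transcripts 1488 results kept their direction and their side of the threshold, 101 that were not called changed sign, 47 gained a call and 26 lost one, and of the counts and naming values 244 stayed within their limits and 33 moved. The number of the 6 called was 1 for late minus early N2 and 0 for that change in the mutants, 1, 2 and 2 for early mex-3/skn-1, pie-1 single and pie-1/pal-1 double mutants against N2, 0, 3 and 4 late, and 1 between the late doubles. Quantile normalization gave 3 and 2 for early and late mex-3/skn-1, 5 for late pie-1, 4 for early pie-1/pal-1 and 0 between the late doubles. Centring on probe sets averaging 5 or more gave 3, 4, 5, 4 and 0 for these and 1 for late minus early pie-1. Of all 22548 probe sets, quantile normalization called 307, 198, 81 and 144 higher in those comparisons with N2. Centring called 400, 328, 108 and 145, against 83, 34, 16 and 31 in the deposited values. For the other alternatives below and the leave-one-out fits the share of all probe sets called was not taken. Scan day as a random block gave 1 for early and 1 for late pie-1 against N2 and took the call of CYTB in late pie-1/pal-1, at 0.98. Lettered N2 times gave 0 for N2 over time, 0 for early mex-3/skn-1 and early pie-1, 1 for late pie-1 and late pie-1/pal-1 and 0 between the late doubles. Numbered times gave 3, 2, 6, 4 and 0 in the order of the first scaling. Both naming alternatives hold fewer groups in a window. The GAPDH covariate gave 0 for early mex-3/skn-1 and 1 each for early pie-1, late pie-1 and late pie-1/pal-1. Of alternatives chosen after seeing the data, scan day as a fixed block gave 1 for late minus early mex-3/skn-1, leaving out the ninth-day mex-3/skn-1 arrays and 186 min gave 3 early, 5 late and 0 for the late COX2 call against pie-1/pal-1, and leaving out the 12 arrays whose pal-1 values went against their labels gave 4 for early pie-1/pal-1. The cause was not tested.

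Leaving out each replicate in turn (36 fits) gave counts of 0 to 1 over time in N2 (0 without replicate P), mex-3/skn-1 (1 without replicate 1) and pie-1/pal-1 (1 without replicate 2) and 0 to 0 in pie-1. Early against N2 they were 0 to 2 in mex-3/skn-1 (0 without replicate 1, 2 without replicate 2), 1 to 2 in pie-1 (1 without pie-1 replicate 3) and 2 to 4 in pie-1/pal-1 (4 without its replicate 1). Late they were 0 to 3 (3 without mex-3/skn-1 replicate 5), 2 to 4 (2 without N2 replicate 1, 4 without pie-1 replicate 2) and 3 to 4 (3 without N2 replicate 1). For late mex-3/skn-1 they were 0 to 2 against pie-1/pal-1 (0 without its replicate 5, 2 without replicate 2) and 0 to 2 against pie-1 (2 without replicate 2), and early against pie-1/pal-1 0 to 1 (1 without replicate 1). The mex-3/skn-1 interaction gave 0 to 1 (1 without replicate 2), and the others 0 to 0. The mean N2 deviation of the 6 at lettered times, 0.77, ran from 0.65 to 0.86, and was 0.82 after quantile normalization, 0.72 after centring on a mean of at least 5 and 0.88 within scan days. The mean difference at 66 min, -0.56, ran from -0.60 to -0.51. A replicate block (label within genotype, correlation 0.0973) gave the same counts, 1 over time in N2 and 4 for late pie-1/pal-1, and changed no other count. Same-labelled arrays had median correlations of 0.02 in N2, 0.04 in mex-3/skn-1, 0.09 in the pie-1 single mutant and 0.23 in its double, against -0.0048, -0.01, -0.03 and -0.07 for other labels. The lowest same-label values were -0.27 to -0.20, and since not every pair was over 0.1 the labels were not taken to pair the arrays, though in pie-1/pal-1 values reached 0.63. A mean over a gene's probe sets was not run, since each of the 6 has 1.

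Sign changes occurred in 101 differences of single transcripts under these alternatives and in 66 under the leave-one-out fits (34 differences), and in none of them was the difference called with or without the alternative. Quantile normalization gave -0.020 for COX3 in N2 over time, -0.098 for COX1 in pie-1/pal-1 over time, and 0.072 for ND1 in early pie-1/pal-1 minus pie-1. It also gave -0.087 for COX1 and -0.019 for ND4 in late pie-1/pal-1 minus pie-1, 0.041 for COX3, 0.095 for ND1 and 0.014 for ND4 in early mex-3/skn-1 minus pie-1, and 0.024 for ND1 in early mex-3/skn-1 minus pie-1/pal-1. It also gave -0.066 for CYTB in the mex-3/skn-1 interaction. Centring on the array median gave -0.0051 for COX1 in pie-1/pal-1 over time. Centring on probe sets averaging 5 or more gave 0.030 for COX1 and 0.092 for COX2 in mex-3/skn-1 over time, 0.032 for CYTB and 0.077 for ND1 in early pie-1/pal-1 minus pie-1, and -0.048 for COX1 and -0.026 for ND4 in late pie-1/pal-1 minus pie-1. It also gave 0.13 for COX1, 0.21 for COX3, 0.17 for ND1 and 0.18 for ND4 in early mex-3/skn-1 minus pie-1, and 0.088 for ND1 in early mex-3/skn-1 minus pie-1/pal-1. The replicate block gave 0.087 for COX2 in mex-3/skn-1 over time, and 0.012 for ND1 in early pie-1/pal-1 minus pie-1. Scan day as a random block gave 0.029 for COX1, 0.18 for COX2 and 0.016 for COX3 in mex-3/skn-1 over time, 0.065 for CYTB and 0.079 for ND1 in early pie-1/pal-1 minus pie-1, and -0.025 for CYTB in the pie-1 interaction. Lettered N2 times gave 0.054 for COX1 in N2 over time, 0.091 for COX1 in mex-3/skn-1 over time, and -0.068 for COX1 in pie-1/pal-1 over time. It also gave -0.13 for COX1, -0.13 for COX3 and -0.047 for CYTB in early mex-3/skn-1 minus N2, -0.090 for COX1 and -0.52 for COX3 in late mex-3/skn-1 minus N2, and -0.012 for CYTB in late pie-1/pal-1 minus pie-1. It also gave -0.12 for COX1 in the pie-1/pal-1 interaction. Numbered N2 times gave -0.020 for COX3 in N2 over time, -0.15 for CYTB in mex-3/skn-1 over time, and -0.26 for COX1 and -0.069 for COX2 in pie-1 over time. It also gave 0.039 for COX3 in pie-1/pal-1 over time, -0.32 for COX1, -0.21 for COX2, 0.059 for CYTB, 0.33 for ND1 and -0.049 for ND4 in early pie-1/pal-1 minus pie-1, and 0.082 for COX3, 0.12 for CYTB and 0.069 for ND1 in early mex-3/skn-1 minus pie-1. It also gave 0.18 for COX1 and 0.060 for CYTB in early mex-3/skn-1 minus pie-1/pal-1, -0.61 for CYTB and -0.077 for ND1 in the mex-3/skn-1 interaction, and -0.42 for COX2 in the pie-1 interaction. It also gave 0.059 for COX3 in the pie-1/pal-1 interaction. The GAPDH covariate gave 0.033 for COX1 and 0.12 for COX2 in mex-3/skn-1 over time, -0.20 for COX1, -0.26 for COX3 and -0.0034 for CYTB in early mex-3/skn-1 minus N2, and -0.51 for COX3 in late mex-3/skn-1 minus N2. It also gave -0.019 for COX1 in late pie-1/pal-1 minus pie-1. Scan day as a fixed block gave 0.20 for COX1, 0.47 for COX2 and 0.31 for COX3 in mex-3/skn-1 over time. Leaving out the ninth-day mex-3/skn-1 arrays and 186 min gave 0.18 for COX1, 0.41 for COX2 and 0.19 for COX3 in mex-3/skn-1 over time, 0.22 for COX1, 0.24 for COX2, 0.45 for COX3, 0.25 for CYTB, 0.39 for ND1 and 0.46 for ND4 in early mex-3/skn-1 minus pie-1, and 0.24 for COX1, 0.17 for COX2, 0.31 for COX3, 0.43 for CYTB, 0.54 for ND1 and 0.30 for ND4 in late mex-3/skn-1 minus pie-1. It also gave 0.084 for COX1, 0.089 for COX2, 0.33 for CYTB, 0.41 for ND1 and 0.36 for ND4 in early mex-3/skn-1 minus pie-1/pal-1, 0.23 for COX1, 0.18 for COX3, 0.32 for CYTB, 0.43 for ND1 and 0.20 for ND4 in late mex-3/skn-1 minus pie-1/pal-1, and 0.19 for COX2 and 0.027 for COX3 in the mex-3/skn-1 interaction. Leaving out 2 arrays noted with another time gave 0.017 for COX2 in mex-3/skn-1 over time. Leaving out the 12 arrays whose pal-1 went against their label gave -0.16 for COX1 in pie-1/pal-1 over time, 0.032 for CYTB and 0.19 for ND1 in early pie-1/pal-1 minus pie-1, and -0.023 for COX1 in late pie-1/pal-1 minus pie-1.

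Among the fits that left out a replicate, 34 differences took both signs. The ranges were -0.064 to 0.14 for COX3 in N2 over time, and -0.62 to 0.30 for COX1, -0.87 to 0.53 for COX2, -0.92 to 0.36 for COX3, -0.18 to 0.87 for CYTB, -0.29 to 0.93 for ND1 and -0.21 to 1.12 for ND4 in mex-3/skn-1 over time. The ranges were -0.17 to 0.27 for COX1 in pie-1 over time, and -0.23 to 0.14 for COX1 in pie-1/pal-1 over time. They were -0.14 to 0.48 for COX1, -0.30 to 0.51 for COX3 and -0.11 to 0.63 for CYTB in early mex-3/skn-1 minus N2, and -0.47 to 0.61 for COX3 in late mex-3/skn-1 minus N2. The ranges were -0.19 to 0.16 for CYTB, -0.24 to 0.30 for ND1 and -0.053 to 0.18 for ND4 in early pie-1/pal-1 minus pie-1, and -0.054 to 0.24 for COX1 and -0.0077 to 0.15 for ND4 in late pie-1/pal-1 minus pie-1. They were -0.55 to 0.069 for COX1, -0.65 to 0.16 for COX3, -0.72 to 0.17 for ND1 and -0.74 to 0.20 for ND4 in early mex-3/skn-1 minus pie-1, and -0.63 to 0.054 for COX1, -0.76 to 0.019 for CYTB and -0.52 to 0.29 for ND1 in late mex-3/skn-1 minus pie-1. The ranges were -0.69 to 0.20 for ND1 and -0.84 to 0.10 for ND4 in early mex-3/skn-1 minus pie-1/pal-1, and -0.72 to 0.088 for ND1 in late mex-3/skn-1 minus pie-1/pal-1. They were -0.26 to 0.67 for COX1, -1.09 to 0.31 for COX2, -0.98 to 0.30 for COX3, -0.51 to 0.54 for CYTB and -0.41 to 0.81 for ND1 in the mex-3/skn-1 interaction, and -0.044 to 0.33 for COX2 in the pie-1 interaction.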

Other observations

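The other two mitochondrial genes with a probe set are ATP6, a subunit of the proton channel of the ATP synthase, and ND5 of complex I. ATP6 had a lowest, median and highest value of 6.12, 6.63 and 8.02 in early and 7.14, 7.95 and 8.83 in late pie-1/pal-1, and it rose there by 1.09 ± 0.32 (adjusted p = 0.00433, limma). In late N2 it read 6.04, 6.95 and 7.83, and 7 of 13 late pie-1/pal-1 arrays were above all N2 arrays, a difference of 0.95 ± 0.31 (0.0146) that is under 2-fold. Its N2 deviation at lettered times was 0.91, and at 66 min lettered minus numbered was -0.72. ND5 lay between 2.26 and 4.16 over all arrays, near the array medians, and was not called over time in any genotype (adjusted p from 0.0785 in pie-1/pal-1 to 0.744 in N2).

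Of 9 nuclear genes for the expression and maintenance of mitochondrial DNA, only mma-1 was called between the windows. The gene is the worm homologue of LRPPRC, which in mammals stabilises mitochondrial mRNAs. It rose in all 4 genotypes, by 1.65 ± 0.18 in N2, 1.29 ± 0.20 in mex-3/skn-1, 1.39 ± 0.19 in the pie-1 single mutant and 1.65 ± 0.17 in the double (adjusted p from 3.74e-08 to 5.27e-14). Its reading in N2 is of the opposite sign to the list's median of -0.13. Between the windows 14.9%, 9.92%, 13.7% and 12.9% of all probe sets were called either way, in the same order of genotypes. Of those averaging 5 or more 19.9%, 17%, 18.5% and 21.8% were called higher. Nothing is read from 1 call among 9 genes. Against N2, early mex-3/skn-1 embryos had lower tfbm-1, a mitochondrial transcription factor B homologue, by -1.07 ± 0.13 (1.44e-10), and lower hsp-60, the mitochondrial chaperonin, by -1.02 ± 0.16 (1.76e-07). Early pie-1/pal-1 embryos had lower hsp-60 by -1.11 ± 0.15 (2.17e-09). These hsp-60 values are those of the brighter of its 2 probe sets. Of all probe sets 6.82% and 3.78% were called lower in these 2 early comparisons, and 22.1% and 10.1% of those averaging 5 or more. None of the 9 was called in late embryos against N2, where the list's medians ran from -0.33 to -0.11.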
